A study of Homo sapiens
Mus musculus with 6 samples.

Results

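The 10 immediate early genes EGR1, EGR2, FOS, FOSB, JUN, JUNB, ATF3, DUSP1, IER2 and NR4A1 were followed in the tumour cells and in the host cells of the same xenografts. They were taken by symbol from a table of 63652 human genes and a table of 42979 mouse genes, and all 10 were listed and tested in each. The set was picked because EGR1 was lower in the tumour cells and higher in the host of laminin tumours, so the laminin against control values below are a description of chosen genes and give no independent support for a pattern. Immediate early genes are transcribed within minutes of a signal such as a growth factor, wounding or stress, without the need for new protein. Mitogen-activated protein (MAP) kinases act on factors already bound at their promoters, among them serum response factor with its ETS-family partners, and the transcripts are short-lived. Most of the products are transcription factors that pass the signal on, and others, such as the phosphatase encoded by DUSP1, switch the kinases off again.

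The tumours were HT29 cells, an established human colorectal adenocarcinoma line, grown under the skin of nude mice, which lack a thymus and so most T cells, for 4 weeks. The 3 control tumours came from HT29 cells, and the 3 laminin tumours from HT29 cells that overexpressed mouse laminin alpha 1, which is built into the laminin trimers of basement membranes. No agent was given to either group, and the labels used here do not state the promoter of the transgene, the number of clones or the age of the mice. In such a graft the human reads come from the cancer cells, and the mouse reads come from host stroma, vessels, immune cells and adjoining tissue, together with the transgene.

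Each table held 1 value per gene and group, so no value per tumour and no spread between tumours can be given, and every p-value is that of the authors' own test. The unit of level is 1 part in 1000000 of all the signal in a table, written ppm. The signal follows read numbers and is not divided by gene length, so levels are compared within a gene and within a table only. A human gene was called at a Benjamini-Hochberg adjusted p under 0.05 over 25838 tested genes, and a mouse gene at an authors' q-value under 0.05 over 14339 tested genes. Steps in the values gave the worth of 1 read, 0.0120 to 0.0137 ppm in the human table and 0.103 to 0.254 ppm in the mouse table. From these steps each ratio was given a 95% counting interval, which covers the counting of reads and not the variation between tumours. The host depth was uneven, since the largest step was 2.47 times the smallest among the laminin tumours and 1.02 times among the control tumours. The 6 epithelial markers of the human table summed to 5908 ppm in the control and 5771 ppm in the laminin group, and 0 of the 6 passed the test. Of the 10 human members 6 lay at loci that the authors' table shares with other genes, namely FOSB, JUNB, ATF3, DUSP1, NR4A1 and IER2. Each gene at these loci has its own value in that table. The labels describe no strand-keeping library step, and whether reads of other genes were counted under these members was not tested.

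EGR1 was the single member called lower in the tumour cells, while JUN, ATF3 and DUSP1 were called higher. This makes 3 higher and 1 lower of 10, where 5.63% of all tested human genes were called higher and 2.45% lower. In the host Egr1, Fos and Nr4a1 were called higher and 0 of 10 members lower. Of all tested mouse genes 0.579% were called higher and 2.96% lower. Because the genes were chosen from these contrasts, nothing is read from the counts against that background. The median log2 ratio of laminin over control was 0.33 for the members in the tumour cells, beside 0.00 for all tested human genes. In the host it was 0.81, beside -0.03 for all tested mouse genes.

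**Figure D1:**
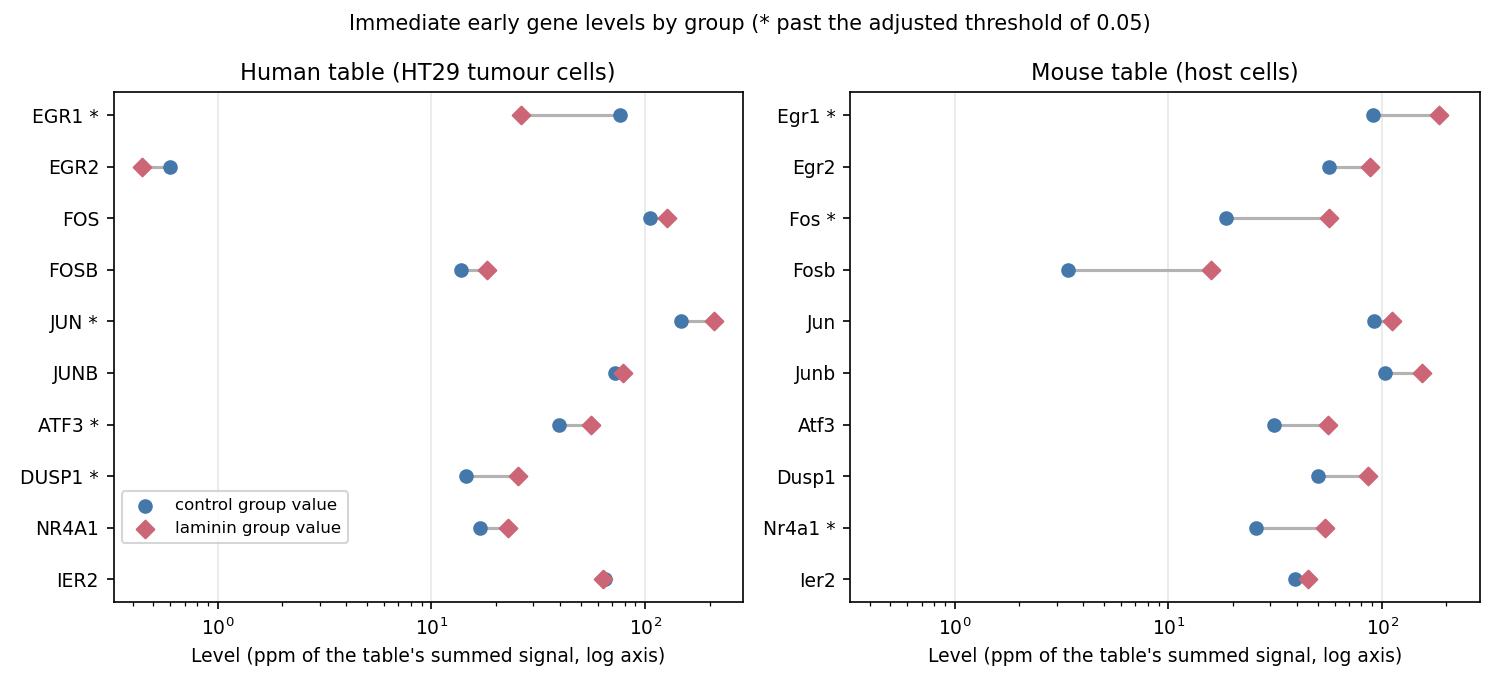
Levels of the 10 immediate early genes in ppm of a table's summed signal (log axis), with a circle for the control and a diamond for the laminin group value, human table at left and mouse table at right. EGR1 runs from 75.8 down to 26.3 ppm in the human table and from 91.0 up to 185 ppm in the mouse table, and every mouse diamond lies to the right of its circle.

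EGR1 encodes a zinc finger transcription factor that binds GC-rich promoters and is induced by growth factor signals through the MAP kinase ERK. In the tumour cells EGR1 (ENSG00000120738, chromosome 5) stood at 75.8 ppm without and 26.3 ppm with added laminin. These values rest on about 5824 and 2092 reads, and the level was 2.88-fold lower with laminin (95% counting interval 2.74 to 3.03). The authors' deposited table gave a log2 ratio of -1.53 and p = 5e-05, and the adjusted p was 0.00121. That p is the smallest listed for human genes and is shared with others, among them JUN and DUSP1. The log2 ratio of EGR1 lay at percentile 4.28 of all tested human genes. In the host Egr1 (mm10 chromosome 18, 34861206 to 34864956) moved the other way, from 91.0 to 185 ppm. That is a 2.03-fold rise (95% counting interval 1.82 to 2.26) on about 595 and 1206 reads. The authors' deposited table lists a log2 ratio of 1.02, p = 5e-05 and q = 0.00238 for Egr1, which lay at percentile 96.3 of all tested mouse genes. The difference between the 2 species' ratios was not tested, since no spread between tumours is at hand.

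EGR2 encodes a related zinc finger factor, known for its part in Schwann cell myelination and in hindbrain patterning. In the tumour cells EGR2 (ENSG00000122877, chromosome 10) stood at 0.598 ppm without and 0.443 ppm with laminin, or about 46 and 35 reads. The counting interval of its laminin over control ratio ran from 0.474 to 1.16, and the authors' deposited table lists p = 0.284. At this depth no difference was detectable for human EGR2. In the host Egr2 (chromosome 10, 67537868 to 67542188) had 56.2 and 87.9 ppm, a ratio of 1.57 (counting interval 1.35 to 1.81). The authors' deposited table lists p = 0.0140 and q = 0.220 for Egr2, which missed the threshold.

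FOS and FOSB encode leucine zipper proteins that pair with Jun proteins to form the transcription factor AP-1. FOS (ENSG00000170345, chromosome 14) stood at 105 and 127 ppm in the tumour cells of control and laminin grafts, a ratio of 1.21. For human FOS the authors' deposited table lists p = 0.0363, and with an adjusted p of 0.252 the gene did not pass. In the host Fos (chromosome 12, 85473900 to 85477270) rose from 18.7 to 56.6 ppm, 3.03-fold (counting interval 2.42 to 3.78). The authors' deposited table gave host Fos p = 0.0001 and q = 0.00441. Of the members called in the host, Fos had the largest ratio.

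FOSB (ENSG00000125740, chromosome 19) stood at 13.8 and 18.1 ppm in the tumour cells, and the authors' deposited table lists p = 0.572. Its ratio of 1.31 was close to the 1.35 of NR4A1, which rests on a like number of reads and for which the authors' deposited table lists p = 0.0110. FOSB shares its locus in the authors' table with ERCC1, PPP1R13L and CD3EAP, which had 93.3 and 95.2 ppm, 69.2 and 72.9 ppm, and 40.7 and 30.1 ppm in the same order of groups, and none of these passed the test. NR4A1 also shares its locus, with RP11-1100L3.8 (3.49 and 3.61 ppm). Why the p of FOSB was larger was not tested. Host Fosb (chromosome 7, 19302695 to 19310045) had 3.38 and 15.9 ppm, a ratio of 4.70 (counting interval 2.89 to 7.64). Its log2 ratio of 2.23 was the largest of the members as deposited, but with 5 ppm added to both levels it was 1.32, below the 1.38 of Fos. The authors' deposited table lists p = 0.00565 and q = 0.114 for Fosb, which did not pass. The control value of Fosb came to 22 reads over the 3 control tumours. How these reads divide among the 3 control tumours could not be settled from the step sizes.

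JUN and JUNB encode the Jun partners in AP-1, and JUN can also bind as a pair with itself. JUN (ENSG00000177606, chromosome 1) rose in the tumour cells from 146 to 210 ppm, 1.44-fold (counting interval 1.40 to 1.47). The authors' deposited table gave JUN p = 5e-05, and the adjusted p was 0.00121. Host Jun (chromosome 4, 95049035 to 95052222) had 91.5 and 112 ppm, a ratio of 1.22, and did not pass (p = 0.246 and q = 0.877, per the authors' deposited table). JUNB (ENSG00000171223, chromosome 19) had 72.5 and 78.4 ppm in the tumour cells, a ratio of 1.08 (p = 0.623, per the authors' deposited table). Its locus in the table is shared with 10 other entries, among them HOOK2 (49.8 and 56.8 ppm) and PRDX2 (77.4 and 89.0 ppm), and neither of these passed the test. Host Junb (chromosome 8, 84976908 to 84978748) had 103 and 154 ppm, a ratio of 1.49 (p = 0.0179 and q = 0.260, per the authors' deposited table).

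ATF3 encodes a stress-induced factor of the ATF/CREB family that often acts as a repressor. ATF3 (ENSG00000162772, chromosome 1) rose in the tumour cells from 39.6 to 55.7 ppm, 1.40-fold (counting interval 1.34 to 1.47). The authors' deposited table lists p = 0.00025 for ATF3, and the adjusted p was 0.00504. Host Atf3 (chromosome 1, 191170296 to 191183333) had 31.1 and 55.6 ppm, a ratio of 1.79, and missed the threshold (p = 0.0062 and q = 0.122, per the authors' deposited table). DUSP1 encodes a nuclear phosphatase that inactivates the MAP kinases p38, JNK and ERK. In the tumour cells DUSP1 (ENSG00000120129, chromosome 5) rose from 14.4 to 25.3 ppm, 1.75-fold (counting interval 1.62 to 1.89), the largest rise among the human members. For DUSP1 the authors' deposited table lists p = 5e-05, which adjusts to 0.00121. Host Dusp1 (chromosome 17, 26505590 to 26508472) had 49.9 and 85.5 ppm, a ratio of 1.71 (p = 0.003 and q = 0.0739, per the authors' deposited table). The DUSP1 ratios of tumour cells and host were thus close in size, with the human gene past the threshold and the mouse gene short of it, and whether they differ was not tested.

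NR4A1 encodes Nur77, an orphan nuclear receptor induced by many signals, among them T cell receptor signals. NR4A1 (ENSG00000123358, chromosome 12) had 16.8 and 22.7 ppm in the tumour cells, a ratio of 1.35, and its adjusted p of 0.107 missed the threshold. Host Nr4a1 (chromosome 15, 101266845 to 101274794) rose from 25.6 to 53.9 ppm, 2.10-fold (counting interval 1.72 to 2.58), and the authors' deposited table lists p = 0.0011 and q = 0.0341. IER2 encodes a small nuclear protein of the early response. Its ratios were the nearest to 1 in both tables, with 65.0 and 63.4 ppm in the tumour cells (ENSG00000160888, chromosome 19) and 39.0 and 45.2 ppm in the host (chromosome 8, 84661330 to 84662852). The p for IER2 was 0.803 in the human and 0.452 in the mouse part of the authors' deposited table, and both counting intervals included a ratio of 1.

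**Figure D2:**
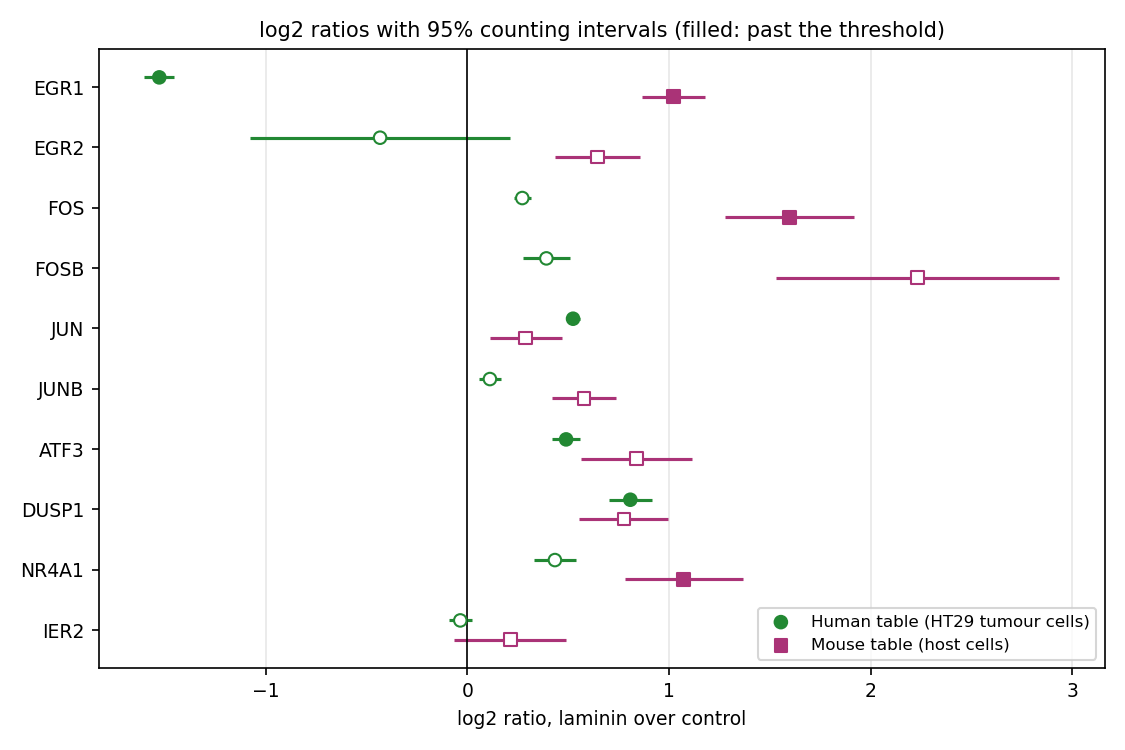
log2 ratios of laminin over control with 95% counting intervals (lines), circles for the human and squares for the mouse table, filled where the gene passed the threshold. EGR1 stands at -1.53 in the human and 1.02 in the mouse table, and the mouse squares run from 0.21 for Ier2 to 2.23 for Fosb.

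In the host all 10 members, called or not, had a ratio above 1. The 10 host ratios lay between a log2 ratio of 0.21 and 2.23, at percentiles 75.4 to 98.9 of all tested mouse genes, and 8 of the 10 had an unadjusted p under 0.05 in the authors' deposited table, all higher, where 2.96% of tested mouse genes were higher and 7.18% lower at that unadjusted level. The share of all tested mouse genes with a ratio above 1 was 46.5%. In the tumour cells 7 ratios were above 1 and 3 below, where 50.4% of tested human genes were above 1, and the unadjusted count was 5 higher and 1 lower, against 10.1% and 6.07% of tested human genes. The counting interval left out a ratio of 1 for 8 human and 9 host members. The same count was not made over all tested genes, so nothing is read from it. Among the 8 were human FOSB and JUNB, for which the authors' own test gave p = 0.572 and p = 0.623. Summed over the members, the level went from 509.5 to 851 ppm in the host. In the tumour cells the sum went from 549.8 to 627 ppm.

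The host members also shared short loci. In mm10 the 10 loci spanned 1522 to 13037 bases with a median of 3560, where the median over 14339 tested mouse genes was 24781 bases and 30.9% of these genes were no longer than the longest member.

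Because both species were read from the same tumours, the counts were checked for reads assigned to the wrong species. The 6 human epithelial markers had 0 to 4.05 mouse reads per 1000 human reads in control tumours and 0 to 0.358 in laminin tumours. The highest in control tumours were CDH1 (222 mouse reads in control and 22 in laminin tumours) and EPCAM (125 and 3). What part of these mouse reads came from the host's own skin was not tested. The 10 members had 15.1 or more mouse reads per 1000 human reads in control and 36.6 or more in laminin tumours, the lowest in both being FOS. The share of wrong-species reads can differ between genes, so the markers set no bound for the members. What part of the members' mouse reads are of human origin was not tested. In the other direction, 7 host stroma genes had up to 4.15 human reads per 1000 mouse reads in control and up to 21.6, for CDH5, in laminin tumours. Of 6 human genes listed as stroma markers 4 were tested. Called higher with laminin were 3 of these, COL1A1 (0.377 and 1.38 ppm), ITGAM (1.11 and 3.32 ppm) and CD14 (0.981 and 2.78 ppm). The list summed to 21.4 ppm in the control and 49.0 ppm in the laminin group. Most of it came from CD68 (18.9 and 41.4 ppm), which was not called. For CD68 the human table held about 1455 and 3293 reads, and the mouse table about 1631 and 1997. Mouse Cd14 went from 102 to 56.6 ppm, the other way from human CD14. The origin of the human reads of these genes was not tested. Human EGR2 alone among the members had fewer human than mouse reads, 46 against 367 in control and 35 against 574 in laminin tumours, and what part of its human reads are of mouse origin was not tested.

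Summed levels of host adipocyte, skeletal muscle and keratinocyte markers also differed between the groups. In the mouse table the 6 adipocyte markers summed to 5664 ppm in the control and 262 ppm in the laminin group, with 5 of 6 called lower. The 6 skeletal muscle markers summed to 3852 and 549 ppm, with 5 of 6 lower. The 6 keratinocyte markers summed to 1532 and 16.7 ppm, with 3 of 6 lower and Krt1 at 0 in laminin tumours. The sums for 6 macrophage markers were 3185 and 4066 ppm, for 3 neutrophil markers 67.6 and 74.6 ppm, for 4 endothelial markers 952 and 989 ppm, for 4 fibroblast markers 21618 and 20854 ppm and for 3 mural cell markers 1433 and 1810 ppm. In these last 5 lists 0 markers passed the test. Of 2 erythroid markers listed, Alas2 was higher, and their sum was 27.4 and 75.9 ppm. The part of these shifts in the host members' values was not tested, and in bulk tissue fewer cells of a type and less RNA per cell cannot be told apart.

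The combination for which EGR1 was chosen, lower in the tumour cells and higher in the host, was also looked for in other genes that share a symbol. Of 10648 symbols tested in both tables, 1308 were called in the tumour cells and 320 in the host. Both tables come from the same 6 tumours, so the combinations are given as a description. Lower in the tumour cells and higher in the host were 3 genes, EGR1, TOR3A and ITGA11. The reverse held for 32, while 17 were higher in both and 21 lower in both. Over all tested genes, 2.45% of human genes were called lower and 0.579% of mouse genes higher. The opposite directions had larger shares, 5.63% higher in the human and 2.96% lower in the mouse table. The EGR1 combination thus draws on the smaller share in each table. With 1 ppm added to both levels, the host log2 ratio exceeded that of the tumour cells by 2.51 for EGR1, by 1.40 for TOR3A and by 1.27 for ITGA11. TOR3A, an AAA+ ATPase of the torsin family, had 33.1 and 21.3 ppm in the tumour cells and 75.9 and 132 ppm in the host. ITGA11, the collagen-binding integrin chain of fibroblasts, was at 0.0791 ppm in control tumour cells and listed at 0 with laminin, with 47.0 and 106 ppm in the host. The human side of ITGA11 thus rests on a handful of reads. Of the reverse kind, the largest differences were those of the fat metabolism genes ACACB (2.90 to 12.5 ppm in the tumour cells, 238 to 8.34 ppm in the host) and GPD1 (19.9 to 39.7 ppm and 603 to 13.2 ppm), of the skin gene DMKN (9.32 to 46.4 ppm and 120 to 10.7 ppm) and of TRIM29 (93.6 to 186 ppm and 58.7 to 2.04 ppm).

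**Figure D3:**
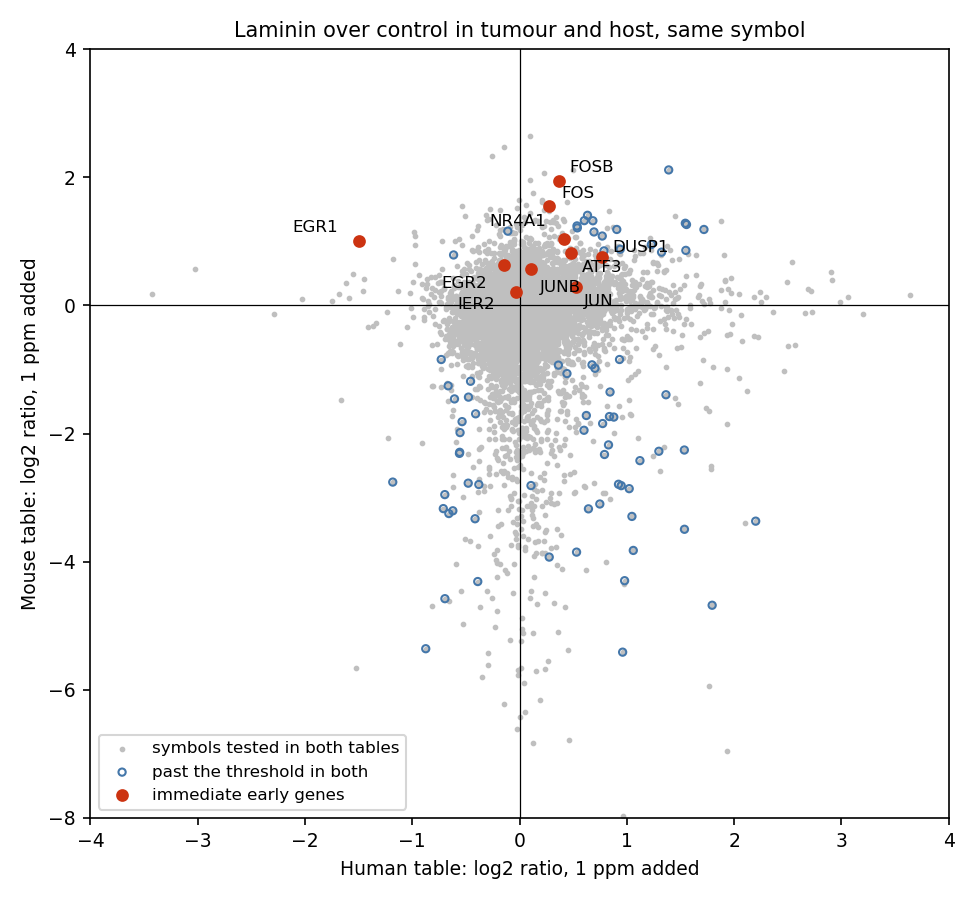
log2 ratios of laminin over control, with 1 ppm added to both levels, for symbols tested in both tables (human table on the horizontal, mouse table on the vertical axis). Red points are the 10 immediate early genes and open blue circles the genes past the threshold in both tables. Among the red points EGR1 alone lies far to the left and above 0, and 2 symbols fall outside the plotted range.

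Other early response and feedback genes were read from a list of 71. For this list, rose and fell mean past the adjusted threshold. In the tumour cells all 71 were tested, and 17 rose and 3 fell, beside the 5.63% and 2.45% of all tested human genes given above. Called or not, 43 ratios were above 1 and 28 below, where 50.4% of tested human genes were above 1. The median log2 ratio of the list was 0.12. In the host 70 were tested (Egr4, listed at 0 in control tumours, carried no test). Of these 2 rose and 0 fell, beside 0.579% and 2.96% of tested mouse genes. Called or not, 50 host ratios were above 1 and 20 below, where 46.5% of tested mouse genes were above 1. The median log2 ratio was 0.17.

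None of the 4 EGR family and NAB corepressor genes passed in the tumour cells. They are named after their values were seen. NAB1 and NAB2, whose products bind EGR proteins and restrain them, had 112 and 92.5 ppm and 17.4 and 15.4 ppm, and EGR3 and EGR4 stayed under 1 ppm in both groups. Of 12 further AP-1, ATF and small MAF genes 2 rose and 1 fell in the tumour cells. FOSL1, which encodes the Fos-related protein FRA1, fell 2.05-fold from 24.0 to 11.7 ppm (p = 5e-05, per the authors' deposited table). BATF2, an interferon-induced member of the family, rose from 1.12 to 5.43 ppm (p = 5e-05, per the authors' deposited table). Of serum response factor and 3 ETS partners, ELK3 rose from 12.3 to 18.9 ppm.

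Of 8 MAP kinase phosphatase genes, which encode negative feedback on the kinases, 2 rose and 0 fell in the tumour cells. Of 5 Sprouty and SPRED genes, whose products curb receptor tyrosine kinase signals, SPRY1 (24.4 to 34.6 ppm) and SPRY2 (56.9 to 81.4 ppm) rose and 0 fell. At an adjusted p under 0.01, SPRY2 alone of these phosphatase, Sprouty and SPRED genes passed. In the group of RNA decay and antiproliferative factors 2 of 5 rose, among them BTG1 (79.1 to 123 ppm). Of 5 secreted and surface genes the matricellular genes CYR61 (4.33 to 9.11 ppm) and CTGF (15.9 to 28.5 ppm) rose, and the authors' deposited table lists p = 5e-05 for each. Of 12 other early transcription factor genes 2 rose, including ETV4 (68.2 to 103 ppm), and 2 fell, including KLF2 (2.35 to 1.35 ppm). Of 11 stress, survival and signalling genes 3 rose, among them GADD45B (3.74 to 6.32 ppm), and of 3 other IER genes IER5L rose (5.51 to 10.8 ppm). With an unadjusted p under 0.05 in the authors' deposited table, 23 of the 71 were higher and 7 lower. The shares of all tested human genes at that level were 10.1% and 6.07%. Apart from EGR4 and NAB1, those that missed the adjusted threshold are not named.

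In the host the 2 genes that rose were Ier3, a survival gene of the early response (36.0 to 83.8 ppm, q = 0.00238 per the authors' deposited table), and Dusp4, a nuclear MAP kinase phosphatase (21.5 to 46.0 ppm, q = 0.0431 per the authors' deposited table). At an unadjusted p under 0.05 in the authors' deposited table, 2.96% of tested mouse genes were higher and 7.18% lower. Of the 70, 11 were higher and 0 lower at that level. The other 9 did not pass and are named after their values were seen, each with its control and laminin level and the q of the authors' deposited table. Tiparp had 51.9 and 91.3 ppm (q = 0.0544), the Sprouty gene Spry4 had 38.7 and 70.4 ppm (q = 0.0652), and the small MAF gene Maff had 24.7 and 48.3 ppm (q = 0.0680). The matricellular gene Cyr61 had 256 and 454 ppm (q = 0.0680), the RNA decay factor Zfp36 had 48.5 and 81.8 ppm (q = 0.0954), and the phosphatase subunit gene Ppp1r15a had 22.5 and 41.4 ppm (q = 0.132). For Ptgs2, which encodes cyclooxygenase-2, the levels were 116 and 174 ppm (q = 0.269), and for the stress genes Gadd45b and Gadd45a they were 29.2 and 47.2 ppm (q = 0.292) and 18.0 and 31.8 ppm (q = 0.329).

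**Figure D4:**
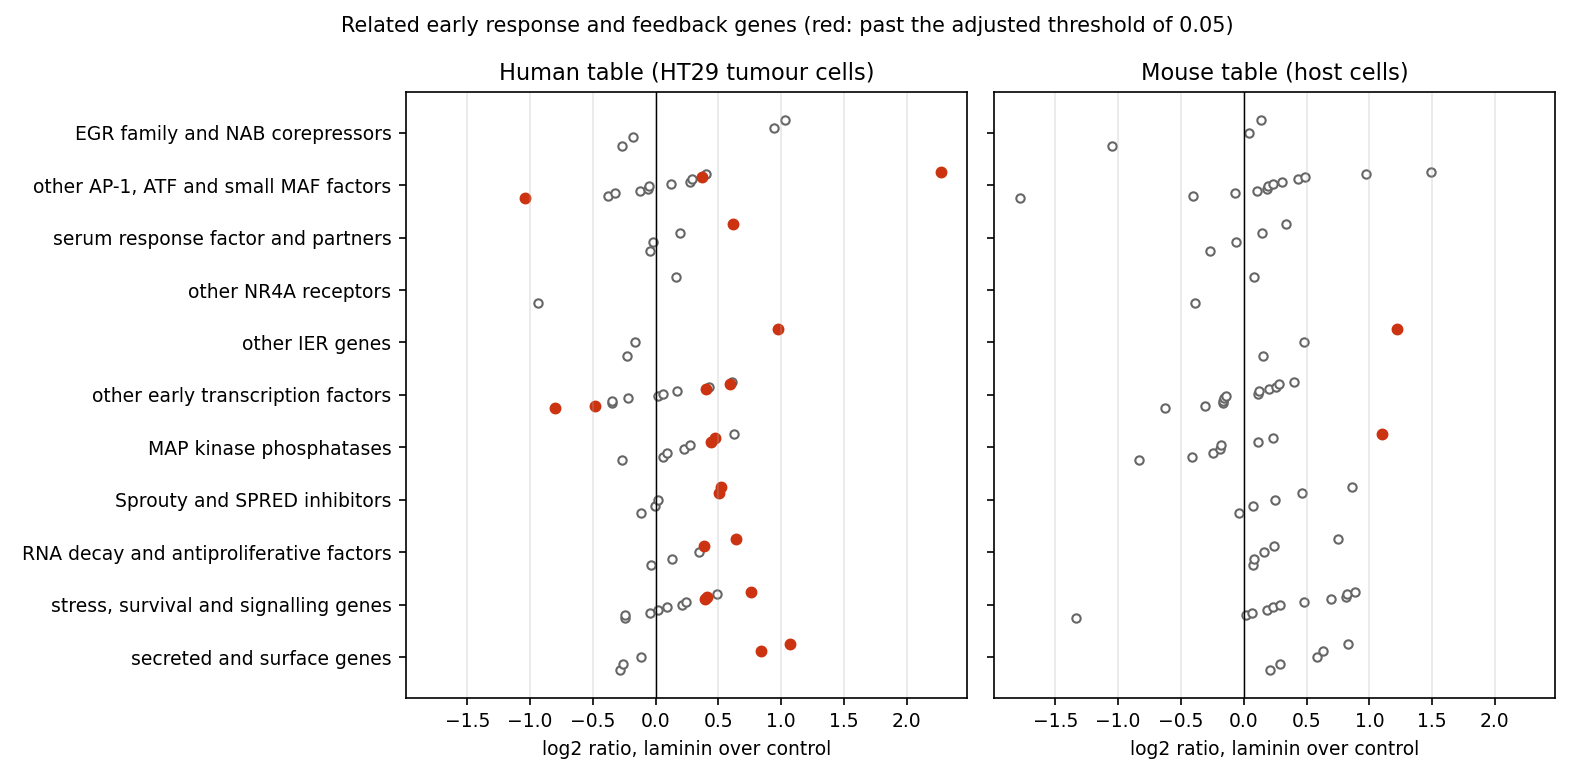
log2 ratios of laminin over control for the related early response and feedback genes, by role, human table at left (71 genes) and mouse table at right (70 genes). Red points passed the threshold, 20 in the human and 2 in the mouse table, and open points did not.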

How the data were processed

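RNA from 3 control and 3 laminin tumours was sequenced. Per the labels' protocols, TruSeq libraries were prepared from mRNA captured on oligo-dT beads. The submitters' processing notes name TopHat2, Cufflinks, hg38 and mm10, while versions and roles are not given in the sources read. The authors deposited 1 signal value per gene and group, with a log2 ratio and a p-value, to which the mouse file adds a q-value and a test statistic (a score), per the file headers. None of the 10 human member loci overlapped the GRCh38 position of the gene in RefSeq (0 of 10), so no human coordinates are printed. The largest row per symbol was kept, and each member had 1 row. The 3 copies of the mouse comparison held the same values, and 1 mouse line with shifted cells was left out.

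Levels were scaled to ppm with 1 factor per table. The Benjamini-Hochberg adjustment of human p-values was tested on simulated data. Reads were estimated from 3 step sizes per group, taking equal levels in the 3 tumours. Of 1000 values up to 25 reads, 85.4% and 85.5% (human) and 93.3% and 94.4% (mouse) were whole sums of steps within 0.0002 of the value, against 15.1%, 11.5%, 1.2% and 10.7% after a shift. Counting intervals used the largest step and are therefore wide. Python 3.11.15, pandas 2.3.3 and numpy 2.4.6 were used.

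The members and lists were chosen with earlier results of these data known. Named were all members, of the related genes at most 12 called per table by size of the ratio with 1 ppm added (EGR3, EGR4, NAB1, NAB2 and the host genes with only an unadjusted p under 0.05 were added after their values were seen), and of genes called in both tables in opposite directions at most 8 with the EGR1 pattern and 4 of the reverse. Promoter and protein sequences were not analysed here.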

Additional observations from a re-analysis of the deposited data

How the results depend on the processing

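No paired analysis was possible because the labels give no replicate numbers and the tables hold 1 value per group, and for the same reason no tumour could be left out. At an adjusted p under 0.01 the related genes called fell from 20 to 10 in the tumour cells and from 2 to 1 in the host, and the genes called in opposite directions in both tables went from 35 to 22. At an unadjusted p under 0.05 the members called higher were 5 in the tumour cells and 8 in the host, the related host genes 11 and the opposite genes 129. The related human genes that fell went from 3 to 7 at an unadjusted p under 0.05, to 5 at a minimum of 1 ppm, to 4 at 5 ppm and to 2 at an adjusted p under 0.01, while those that rose went from 17 to 23, 18, 17 and 8. The other counts of calls stayed within 1.5 times of the reported value under these thresholds, under a minimum mean level of 1 or 5 ppm with p-values readjusted, and with any row of a symbol allowed. Adding 1 or 5 ppm to both levels cannot change a sign, nor can summing rows, since each member had 1 row. No called member changed sign with each group divided by its sum or centred on the median gene. The same held centred on ribosomal protein genes (median log2 ratio -0.06 in the human and 0.07 in the mouse table). These shifts were all smaller than the smallest called log2 ratio (0.49, human ATF3), so they could not change the sign of a called member. Centring on ribosomal protein genes put human IER2, which was not called, above 0, so that 2 human members in place of 3 lay below. Of 20 member ratios, 3 moved by more than the counting interval with 5 ppm added (human EGR1 to a log2 ratio of -1.37, human DUSP1 to 0.64 and host Fosb to 1.32) and 4 with ribosomal centring (human FOS, JUN, JUNB and IER2). Depth limits human EGR2 (about 46 and 35 reads) and host Fosb in control tumours (22 reads).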
